A study of Mus musculus with 24 samples.

Results

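Genes linked to complement or to macular degeneration, 8 in number, were followed in mouse retinal pigment epithelium (RPE). This single layer of pigmented cells lies between the photoreceptors and the choroidal vessels. They were chosen by name, and all 8 were found among the 54232 gene identifiers counted and among the 20275 that passed a minimum-count filter. They are the complement genes C3, Cfb and Cd59a, the matrix genes Timp3, Efemp1 and Htra1, and the vessel regulators Vegfa and Serpinf1. The study asks what the clock genes Per1 and Per2 do in this tissue around the daily peak of photoreceptor outer segment uptake. Mice labelled Per1-/-Per2Brdm1 (here KO) and wild type mice (here WT) were compared at circadian times CT19, CT22, CT1 and CT10, with 3 libraries in each of the 8 groups. All mice were males, 6 weeks of age, of the mixed strain C57BL/6/J x 129 SvEvBrd. The RPE was cut from snap-frozen eyes by laser capture microdissection, and 5 of the 24 libraries were pooled from 2 eyes. Those pools are named by a joined number, such as 3and5. Whether 2 libraries could share an animal is not stated, and the spread behind each p-value is therefore that of libraries.

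Complement is a cascade of plasma proteins in which C3 is cleaved and deposited on surfaces, factor B drives its amplification and CD59 blocks the final pore. The RPE also lays down and remodels Bruch's membrane, the sheet on which it rests, and releases VEGF-A towards the choroid, whose capillaries depend on it. Variants of complement genes, TIMP3, EFEMP1 and the HTRA1 region are known from human macular disease, and blocking VEGF-A is the standard treatment of its neovascular form.

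Library depth was 16245067 to 32066263 counts, spread over 19030 to 24072 detected genes. Levels are given as CPM, counts normalised to library size with TMM factors, and errors are the SD over 3 libraries or the SE of a fitted log2 difference, KO minus WT. Of 12 RPE markers, 11 were counted in every library, while Best1, an RPE chloride channel, averaged 0.841 CPM. All 10 rod markers were also counted in every library, with a summed level of 14148 to 81624 CPM beside 35920 to 69484 CPM for the RPE markers, so RNA of the neighbouring photoreceptors was present throughout. Summed levels were 386 to 1070.3 CPM for 10 endothelial markers, 305 to 592 CPM for 10 immune markers and 1853 to 4445 CPM for 6 melanocyte markers. In tissue of mixed cells, a change in the share of a cell type and a change in RNA per cell cannot be told apart. Gene-level counts of Per1 and Per2 were higher in the libraries labelled KO at CT19, CT22 and CT1, so they do not check the label. A list of 11 E-box and D-box clock genes was chosen with earlier results of these data known. All 11 passed the test in the genotype average, where 0.375% of all genes did, and were higher in KO. They were led by Ciart, Dbp, Nr1d2, Tef, Cry2 and Per3. At CT19, CT22, CT1 and CT10, 4, 8, 6 and 0 of the 11 passed, beside 0.0691%, 0.227%, 0.533% and 0.0345% of all genes.

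Averaged over the 4 times, none of the 8 genes passed an adjusted p of 0.05 between KO and WT (edgeR quasi-likelihood test, Benjamini-Hochberg over all genes tested), where 0.375% of all genes did. Of the 8, 0 also had an unadjusted p under 0.05 in that average, beside 7.07% of all genes, and DESeq2 called 0 as well. None passed at a single time either, where the share of all genes called was 0.0691% at CT19, 0.227% at CT22, 0.533% at CT1 and 0.0345% at CT10. At an unadjusted p under 0.05, 1, 1, 2 and 3 of the 8 were found at CT19, CT22, CT1 and CT10, beside 3.47%, 12.7%, 19.5% and 17.9% of all genes. Vegfa was the exception in the tests that involve time: it passed for a difference over the 4 times in WT (0.947% of all genes called) and for the genotype by time interaction (4.62% of all genes called). At an unadjusted p under 0.05, 2 of the 8, Vegfa and Cfb, were found in each of these tests, beside 19.3% of all genes over time in WT and 22.3% in the interaction. Over the 4 times in KO, edgeR called 0.0% of all genes and none of the 8. Of the 8, 2 had an unadjusted p under 0.05 there, as did 2364 of all genes (11.7%). DESeq2 called 284 genes (1.40%), among them the member Serpinf1.

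**Figure D1:**
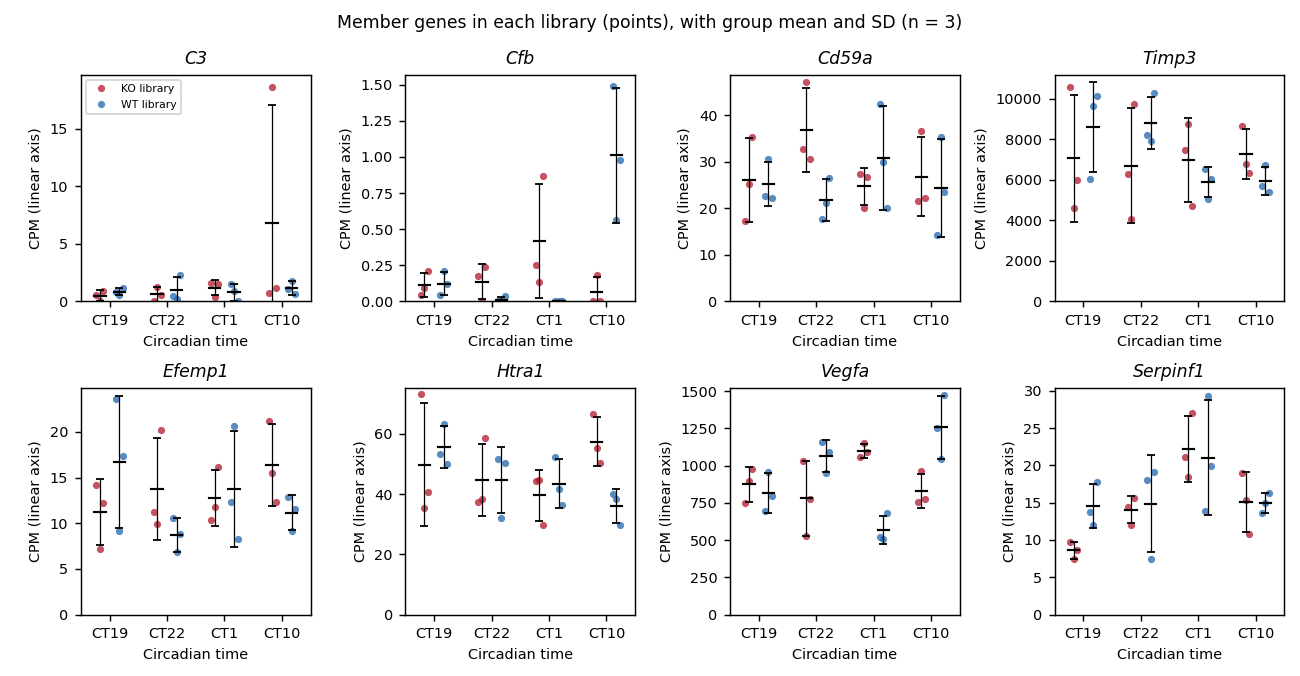
CPM of each member gene in each library, with KO left of WT at every circadian time. Points are libraries, horizontal bars group means and whiskers SD (n = 3), cut off at 0. The group mean of Vegfa was lowest in WT at CT1, C3 was high in a single KO library at CT10, and Cfb was at or near 0 outside WT at CT10 and KO at CT1.

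Counting libraries alone, KO and WT did not overlap for 1 of the 8 genes at CT19, 1 at CT22, 2 at CT1 and 3 at CT10. The same was true of 9.27%, 12.8%, 24.7% and 30.2% of all genes tested at those times. The members were Serpinf1 at CT19, Cd59a at CT22, Cfb and Vegfa at CT1, and Cfb, Vegfa and Htra1 at CT10. The shares among the 8 genes are thus close to those over the transcriptome. The median KO minus WT log2 difference of the 8 genes was -0.22, -0.04, 0.16 and 0.21 at the 4 times, beside -0.01, 0.03, -0.01 and 0.09 over all genes.

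Vegfa encodes VEGF-A, the secreted factor by which the RPE maintains the choroidal capillaries. It lies on GRCm38 chromosome 17, 46016993 to 46032369, on the minus strand (ENSMUSG00000023951), and no other annotated gene overlaps it. Its difference between genotypes turned with time: KO stood above WT at CT1 and below it at CT10. Because this is the member whose values moved with time, the promoter window of its outermost RefSeq start is shown (GRCm38.p6, chr17:46032328-46032627, minus strand, 250 bases before to 50 after the start, 5′ to 3′), with capitals marking GC boxes, the letters GGGCGG bound by the SP factors.

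Vegfa: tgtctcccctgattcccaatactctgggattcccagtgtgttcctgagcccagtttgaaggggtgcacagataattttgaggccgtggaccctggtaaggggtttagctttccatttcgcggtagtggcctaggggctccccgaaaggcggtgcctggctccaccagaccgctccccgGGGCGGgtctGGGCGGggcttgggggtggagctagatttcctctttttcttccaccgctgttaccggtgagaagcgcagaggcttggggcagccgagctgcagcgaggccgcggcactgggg

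At CT1, Vegfa was at 1059, 1150.4 and 1092 CPM in the 3 KO libraries, against 519, 505 and 680 CPM in the 3 WT libraries. Every KO library lay above every WT library, by a log2 difference of 0.95 ± 0.23 (SE). Its adjusted p was 0.0506 and the unadjusted p 0.000289, so it missed the threshold narrowly. At CT10 the order was the opposite, with 759, 962 and 774 CPM in KO libraries and 1253, 1046 and 1473 CPM in WT libraries. The log2 difference there was -0.60 ± 0.23 (adjusted p = 0.183), and DESeq2 called it with an adjusted p of 0.03. At CT10, DESeq2 called 3.79% of all genes, against 0.0345% with edgeR. At CT22 the libraries overlapped, with 1032, 528 and 779 CPM in KO and 1159.5, 948 and 1092 CPM in WT (log2 difference -0.45 ± 0.23, adjusted p = 0.410). At CT19 they overlapped as well, with 746, 899.5 and 979 CPM in KO and 694, 958 and 793 CPM in WT (log2 difference 0.10 ± 0.23). The average over times was 897 ± 182 CPM in KO and 927 ± 298 CPM in WT (n = 12 each), a log2 difference of 0.00 ± 0.11 (0.00204 before rounding).

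The genotype by time interaction of Vegfa passed the test, with KO minus WT differences spanning a log2 range of 1.55 over the 4 times (adjusted p = 0.0257). Within WT, Vegfa changed over the 4 times with a log2 range of 1.15 (adjusted p = 0.0403), lowest at CT1 with a mean of 568 ± 97.0 CPM and highest at CT10 with 1257 ± 214 CPM. Within KO the log2 range was 0.50 and did not pass (adjusted p = 0.630), with a lowest mean of 779.7 ± 252 CPM at CT22 and a highest of 1101 ± 46.2 CPM at CT1. Ranked by mean over all 8 groups, WT at CT10 came first and WT at CT1 last, and each pair of neighbours in that order had overlapping libraries.

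Rod markers moved against Vegfa. At CT1, the summed level of the 10 rod markers was 21343 to 26422 CPM in KO libraries, against 50260 to 71037 CPM in WT libraries, with no overlap, and 9 of the 10 had an unadjusted p under 0.05. The share of all genes at an unadjusted p under 0.05 at CT1 was 19.5%. In the interaction 7 of the 10 rod markers passed, where 4.62% of all genes did, among them Nrl, Rom1, Cnga1, Nr2e3 and Pde6a. With the mean log2 level of the rod markers as a covariate, the Vegfa difference at CT1 was 0.65 (adjusted p = 0.621), the range in WT 0.93 (adjusted p = 0.0783) and the interaction range 1.19 (adjusted p = 0.170). With endothelial, mural and fibroblast markers as the covariate instead, the interaction range was 1.43 (adjusted p = 0.0644). Markers of other cells moved at CT1 as well. Of the 10 markers of glia and inner retina, 8 had an unadjusted p under 0.05 at CT1, with a median log2 difference of -1.83 beside -1.29 for the rod markers, while their summed levels overlapped, at 934.5 to 1630.0 CPM in KO libraries and 1304 to 1634 CPM in WT libraries. Summed melanocyte markers did not overlap, at 2027 to 2694 CPM in KO libraries and 2908 to 3570 CPM in WT libraries. The part of these cells in the Vegfa difference was not tested. The 12 RPE markers overlapped at CT1, at 35920 to 54517 CPM in KO libraries and 36521 to 45841 CPM in WT libraries. A fit with the RPE markers as the covariate was chosen after seeing the data. In it, the interaction range was 1.55 (adjusted p = 0.00639) and the CT1 difference 0.93 (adjusted p = 0.0211). It called 7.82% of all genes in the interaction and 1.70% at CT1, against 4.62% and 0.533% as reported. That fit holds no term for the rod markers.

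Set against the RPE markers of the same library, Vegfa kept both orders. Per 100 CPM of summed RPE markers, it was at 2.11, 2.18 and 3.04 CPM (lowest, median and highest) in KO libraries at CT1, against 1.13, 1.38 and 1.58 CPM in WT libraries. At CT10 it was at 1.17, 1.46 and 1.83 CPM in KO libraries, against 1.88, 2.64 and 3.37 CPM in WT libraries. The libraries of KO and WT did not overlap at either time. This ratio does not take the rod markers into account. At CT10 the summed rod markers overlapped, at 26534 to 43168 CPM in KO libraries and 22499 to 36352 CPM in WT libraries, while 10 markers of glia and inner retina did not, at 1471 to 1927 CPM in KO libraries and 926 to 1110.0 CPM in WT libraries. Of those 10, Calb1 and Grm6 passed in the interaction, where 4.62% of all genes did. The part of the inner retinal RNA in the CT10 difference was not tested.

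**Figure D2:**
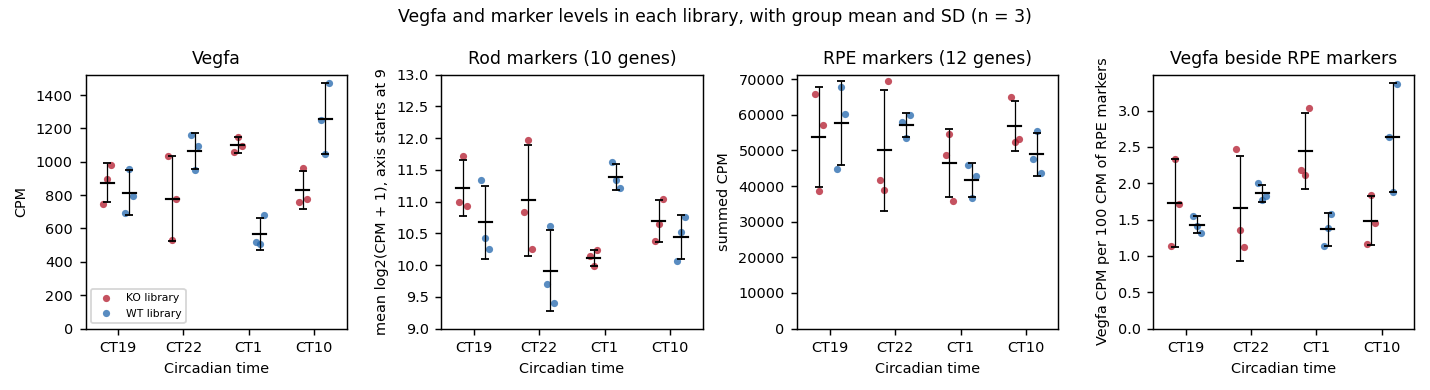
Vegfa in CPM, the mean log2 level of 10 rod markers (axis from 9), the summed CPM of 12 RPE markers, and Vegfa per 100 CPM of RPE markers, for each library by circadian time with KO left of WT. Points are libraries, with group mean and SD (n = 3). At CT1, KO libraries were higher than WT libraries in Vegfa and lower in rod markers, while RPE markers overlapped.

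Single libraries also bore on these calls. Leaving out each of the 24 libraries in turn kept the interaction range of Vegfa between 1.49 and 1.74, and it passed in 16 of the 24 fits. The 8 that missed left out KO CT1 replicates 1, 4and6 or 5, KO CT10 replicates 2 or 4, WT CT1 replicates 2 or 3and6, or WT CT10 replicate 1, with adjusted p of 0.0517 to 0.0877. The change over time in WT passed in 18 of the 24 fits, and missed without WT CT1 replicates 2 or 3and6, any of the 3 WT CT10 libraries, or WT CT22 replicate 6 (adjusted p of 0.0507 to 0.126). The CT1 difference, which did not pass with all libraries, lay between 0.88 and 1.09 and passed in 7 of the 24 fits. Those were the fits without KO CT19 replicates 2 or 3and5, any of the 3 KO CT22 libraries, WT CT19 replicate 1 or WT CT1 replicate 5, with adjusted p of 0.0111 to 0.0460.

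**Figure D3:**
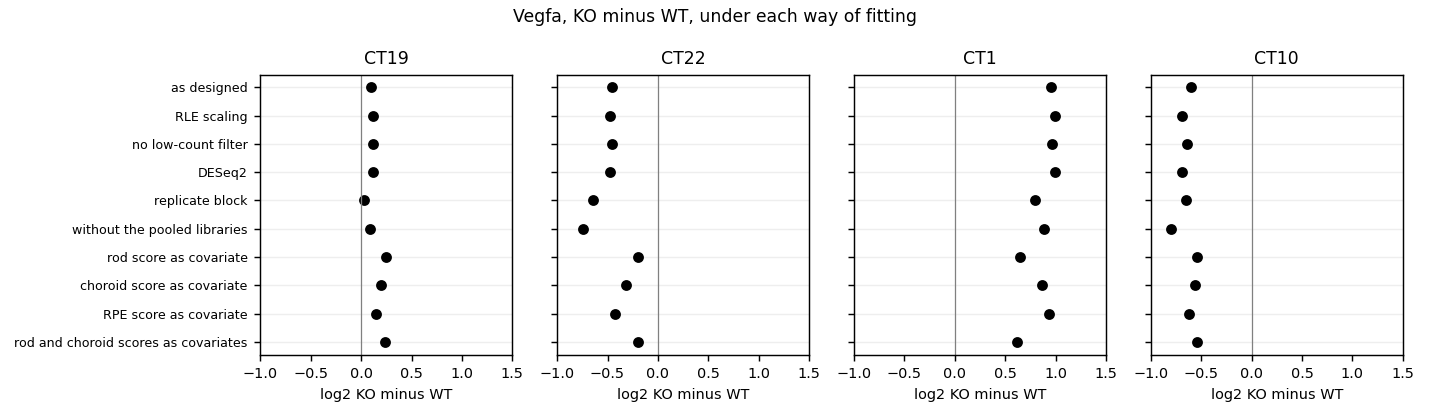
KO minus WT log2 difference of Vegfa at each circadian time under each way of fitting the counts to all libraries or without the pooled ones; fits without 1 library are not drawn. The vertical line marks 0. In the fits drawn, the difference lay between 0.62 and 0.99 at CT1 and between -0.80 and -0.54 at CT10.

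Receptors and relatives of Vegfa passed neither in a test between genotypes nor in the interaction. Among 22 vessel regulators, the genes that passed in any contrast were Vegfa and Pgf, which encodes placental growth factor, another ligand of the receptor FLT1. Both passed over time in WT, where 0.947% of all genes did, and Vegfa in the interaction, where 4.62% did. Pgf changed over the 4 times in WT with a log2 range of 1.47 (adjusted p = 0.0406). It averaged 25.6 ± 1.07 CPM in KO and 49.7 ± 4.66 CPM in WT at CT10, a log2 difference of -0.96 ± 0.29 with an adjusted p of 0.123. At CT1 the Pgf difference was 0.41 ± 0.29 (adjusted p = 0.465), so its signs at CT1 and CT10 were those of Vegfa. The Pgf interaction did not pass (range 1.37, unadjusted p = 0.0238, adjusted p = 0.150). Kdr, the main signalling receptor for VEGF-A on endothelium, had an interaction range of 1.04 (adjusted p = 0.456), Flt1 one of 1.03 (adjusted p = 0.239) and the co-receptor Nrp1 one of 1.07 (adjusted p = 0.269). Vegfb and Vegfc, which encode related ligands, had interaction ranges of 0.50 and 0.70 (adjusted p = 0.475 and 0.690). The median interaction range of the 22 genes was 1.04, beside 1.08 over all genes tested.

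Vegfa is also a textbook target of the hypoxia-inducible factors (HIF), and of 16 HIF targets 15 were tested. Of these, 2 passed in the interaction, Vegfa and Bnip3, which encodes a mitophagy receptor, where 4.62% of all genes did, and their directions differed. Bnip3 averaged 12.9 ± 3.40 CPM in KO and 23.8 ± 2.47 CPM in WT at CT1, and 24.2 ± 3.45 CPM in KO and 12.3 ± 0.157 CPM in WT at CT10 (interaction range 1.86, adjusted p = 0.0314). Ndrg1, a hypoxia-induced stress gene, was lower in KO at CT1, at 102 ± 25.5 CPM in KO and 234 ± 48.8 CPM in WT (log2 difference -1.20 ± 0.26, adjusted p = 0.0310). Ndrg1 was the 1 HIF target called at CT1, where 0.533% of all genes were. At an unadjusted p under 0.05 there were 6 of the 15 at CT1 and 8 in the interaction. The shares of all genes were 19.5% and 22.3%. Rod markers were also lower in KO at CT1, and the part of the rods in the Bnip3 and Ndrg1 differences was not tested. The median difference of the 15 genes at CT1 was -0.18, beside -0.01 over all genes.

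Sequence patterns, 7 in number, were searched on both strands of the RefSeq promoter windows, which matched 7 of the 8 genes, all but Cfb. The E-box CACGTG, read by the CLOCK and BMAL1 pair, was in none of them and in 7.15% of all 32851 windows. The D-box TTATGTAA was in none of them either, and in 0.938% of all windows. The Vegfa window above held GGGCGG at 2 places, 72 and 62 bases before the start, and 35.7% of all windows hold it. It held no HIF core ACGTG (19.6% of all windows) and no AGGTCA, the core motif of the REV-ERB and ROR receptors (16.3% of all windows). A window at an inner Vegfa start (chr17:46025114-46025413) held ACGTG on the opposite strand, 211 bases before that start. A match or its lack describes these letters only.

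Over the 24 libraries, the genes whose log2(CPM + 1) was most like that of Vegfa were Igf2bp1, an mRNA-binding protein gene (r = 0.955), Arhgef40 (r = 0.928) and Rapgef3 (r = 0.920). They were picked as the highest among all genes with a mean of at least 5 CPM, and the mixture of rod and RPE RNA varied between the libraries, so r is given as a description.

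Serpinf1 encodes pigment epithelium-derived factor (PEDF), a secreted serpin that restrains vessel growth and supports photoreceptors, and whose receptor is encoded by Pnpla2. The gene is on GRCm38 chromosome 11, 75409769 to 75422701, on the minus strand (ENSMUSG00000000753), 6.3 Mb from Per1, and alleles linked to the altered Per1 were not analysed here. Its promoter window is shown because it is the member window with a clock-type E-prime box, CACGTT, which reads AACGTG on this strand (GRCm38.p6, chr11:75422574-75422873, minus strand, capitals mark the box).

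Serpinf1: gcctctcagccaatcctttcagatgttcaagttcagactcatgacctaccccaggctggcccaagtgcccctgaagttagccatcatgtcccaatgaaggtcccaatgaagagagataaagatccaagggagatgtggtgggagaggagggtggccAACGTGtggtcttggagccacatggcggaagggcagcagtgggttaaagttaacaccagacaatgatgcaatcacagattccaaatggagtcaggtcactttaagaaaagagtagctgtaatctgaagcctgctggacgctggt

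The box lies 94 bases before the start and overlaps an ACGTG match, and CACGTT is found in 4.68% of all windows. The window also held AGGTCA at 2 places, 209 and 2 bases before the start. With edgeR as reported, Serpinf1 passed in none of the 8 contrasts, while DESeq2 and edgeR with no low-count filter called its change over time in KO.

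Serpinf1 was at 9.74, 7.48 and 8.66 CPM in KO libraries at CT19, against 13.8, 12.01 and 17.8 CPM in WT libraries. All KO libraries were lower, with a log2 difference of -0.75 ± 0.30, an unadjusted p of 0.0191 and an adjusted p of 1.0. At CT22 it was at 14.5, 12.04 and 15.7 CPM in KO and 18.1, 7.39 and 19.1 CPM in WT. At CT1 it was at 21.1, 18.4 and 27.0 CPM in KO and 13.9, 29.3 and 19.9 CPM in WT. At CT10 it was at 18.9, 15.3 and 10.9 CPM in KO and 13.5, 14.9 and 16.3 CPM in WT. The genotypes overlapped at CT22, CT1 and CT10, with log2 differences of -0.08, 0.07 and 0.01 (SE 0.30 each).

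Over time, the mean of Serpinf1 in KO was lowest at CT19 (8.63 ± 1.13 CPM) and highest at CT1 (22.2 ± 4.40 CPM), a log2 range of 1.36 with an unadjusted p of 0.00153 and an adjusted p of 0.272. DESeq2 called this change over time with an adjusted p of 0.023, and edgeR with no low-count filter with one of 0.000925. Those fits called 1.40% and 3.83% of all genes over time in KO, against 0.0% as reported. Choroidal markers rose in KO between the same times, without overlap. Summed fibroblast markers were at 172 to 223 CPM at CT19 and 330 to 598 CPM at CT1. Summed endothelial markers were at 516 to 563 CPM at CT19 and 748 to 942 CPM at CT1. The part of these cells in the Serpinf1 change over time was not tested. KO at CT19 was the lowest of the 8 groups and was the single place in the order where neighbouring groups, here KO at CT22, did not overlap. The summed melanocyte markers at CT19 were also lower in KO, at 1853 to 3107 CPM in KO libraries and 4129 to 4445 CPM in WT libraries. Their part in the Serpinf1 difference was not tested. With endothelial, mural and fibroblast markers as a covariate, the CT19 difference was -0.38 (unadjusted p = 0.0982). The genes most like Serpinf1 over the 24 libraries were Ednrb, an endothelin receptor of melanocytes and vessels (r = 0.880), Syt4 (r = 0.858) and Atoh8 (r = 0.851). Pnpla2 averaged 43.6 ± 8.08 CPM over the 24 libraries, and its 4 genotype differences lay between -0.35 and 0.14.

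**Figure D4:**
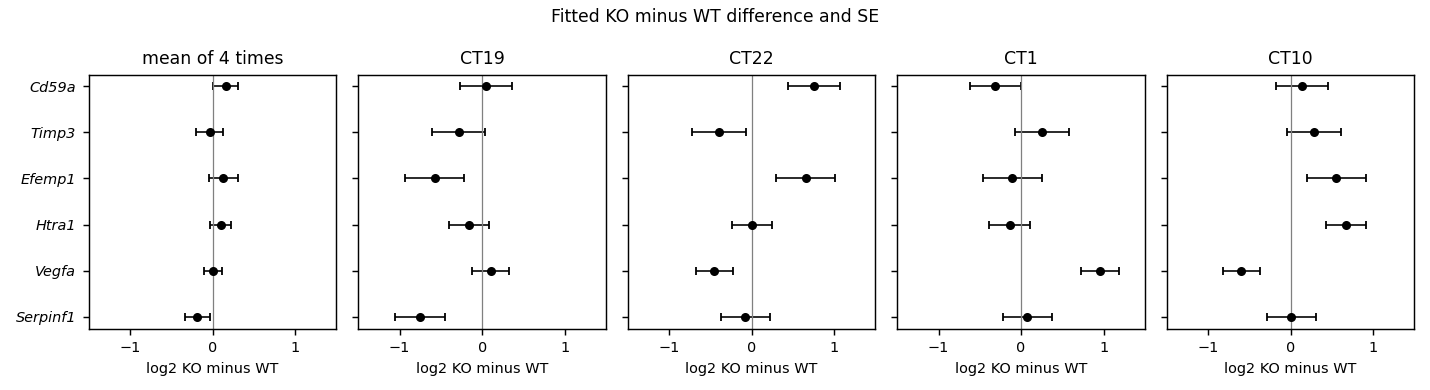
Fitted log2 difference, KO minus WT, with its SE for the 6 members with more than trace counts, as the mean of the 4 times and at each circadian time. C3 and Cfb are left out because some groups were at or near 0. The differences of Vegfa lay above 0 at CT1 and below 0 at CT22 and CT10, and its mean of the 4 times was near 0.

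C3 encodes the central complement component, and it was almost absent. It lies on GRCm38 chromosome 17, 57203970 to 57228136, on the minus strand (ENSMUSG00000024164). In 23 of the 24 libraries it was at 2.26 CPM or lower, and 3 of those had 0 counts. The exception was the pooled library KO CT10 replicate 3and5, with 406 counts or 18.6 CPM, beside 0.756 and 1.15 CPM in the other KO libraries and 1.07, 1.77 and 0.614 CPM in WT libraries at CT10. The fitted log2 difference at CT10 was 2.56 ± 1.37 (adjusted p = 0.328) with all libraries, and -0.33 without that library. For the change over time in KO, edgeR gave an unadjusted p of 0.0218 with all libraries and 0.735 without that library. With no low-count filter and all libraries, this change was called (adjusted p = 3.27e-05), in a fit that called 3.83% of all genes there. At CT19, C3 was at 0.521, 0 and 0.912 CPM in KO and 0.762, 0.580 and 1.18 CPM in WT. At CT22 it was at 0, 1.27 and 0.568 CPM in KO and 0.480, 0.175 and 2.26 CPM in WT. At CT1 it was at 1.62, 0.405 and 1.52 CPM in KO and 1.46, 0.929 and 0 CPM in WT. KO and WT overlapped at all 4 times.

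The library with high C3 also had the highest level of H2-K1 and Psmb8, which were among the genes most like C3. H2-K1, which encodes an MHC class I heavy chain, was at 180.2 CPM there and at most 114.5 CPM in any other library (r = 0.606 with C3 over 24 libraries, 0.217 over the other 23). Psmb8, an interferon-response gene that encodes an immunoproteasome subunit, was at 14.2 CPM there and at most 9.90 CPM elsewhere, with r of 0.589 over all libraries and 0.310 without it. These likenesses therefore rested largely on that 1 library. Because both genes were picked by their r with C3, a high level there is bound up with the choice and is no separate observation. The summed immune cell markers at CT10 were 463 to 531 CPM in KO libraries and 484 to 563 CPM in WT libraries.

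Cfb encodes factor B, the protease subunit of the alternative pathway C3 convertase, and as counted it had the lowest mean CPM of the 8 genes. It lies on GRCm38 chromosome 17, 34856374 to 34862518, on the minus strand (ENSMUSG00000090231). A readthrough gene, Gm20547, shares 2246 of its 2825 exonic bases on the same strand and had 0 counts in every library, and how reads in shared bases were assigned is not given in the sources used here, so the level of Cfb is uncertain. The highest counts were in WT at CT10, with 32, 13 and 24 counts or 1.49, 0.560 and 0.982 CPM, against 0, 4 and 0 counts in KO libraries at CT10 (0, 0.183 and 0 CPM). At CT1 the order was the opposite, with 7, 3 and 29 counts in KO libraries (0.251, 0.135 and 0.866 CPM) against 0 counts in each WT library. Taking 3 counts over the WT CT1 group as a floor, the pooled level of Cfb in KO at CT1 (39 counts in all) was 9.52 times that floor. The floor covers counting error in WT only, and the ratio leaves out the spread between libraries, so it is no lower limit of the difference. Of the 39 counts, 29 came from KO CT1 replicate 5, and without that library the ratio was 4.07. Summed immune markers at CT1 were also higher in KO, at 542.5 to 559 CPM in KO libraries and 380 to 467 CPM in WT libraries, with no overlap and 1 of the 10 at an unadjusted p under 0.05. Their part in the Cfb difference was not tested. At CT19 there were 1 to 5 counts in KO and in WT, and at CT22 0 to 5 counts in KO and 0 or 1 in WT.

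None of the contrasts of Cfb passed the test. Adjusted p was 0.103 for the difference at CT1, 0.211 at CT10, 0.0654 for the change over time in WT and 0.0613 for the interaction. The gene passed the count filter through WT at CT10, so its being tested is not independent of its time difference in WT, its interaction or its lower level in KO at CT10, which includes its place among the members without overlap there. With endothelial, mural and fibroblast markers as a covariate, the change over time in WT passed (adjusted p = 0.0284), as it did without KO CT22 replicate 2 (adjusted p = 0.0391). Those fits called 884 of 20275 and 686 of 21366 genes over time in WT, against 192 of 20275 as reported. Cfb was most like Il15ra, an interleukin receptor gene (r = 0.840), Ankrd16 (r = 0.816) and Zcchc4 (r = 0.810).

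Cd59a encodes the membrane-anchored inhibitor of the terminal pore, and it was the complement member with a clear level. The gene is on GRCm38 chromosome 2, 104095801 to 104115354, on the plus strand (ENSMUSG00000032679). At CT22 it was at 32.7, 47.1 and 30.6 CPM in KO libraries, against 17.7, 21.1 and 26.6 CPM in WT libraries. All KO libraries were higher, with a log2 difference of 0.76 ± 0.31 that did not pass the test (unadjusted p = 0.0236, adjusted p = 0.303). Summed rod markers at CT22 were 24678 to 81624 CPM in KO libraries and 14148 to 32229 CPM in WT libraries, and with them as a covariate the unadjusted p was 0.216. At CT19 it was at 17.3, 25.2 and 35.4 CPM in KO and 22.7, 30.6 and 22.2 CPM in WT. At CT1 it was at 27.4, 20.1 and 26.6 CPM in KO and 42.4, 29.9 and 20.1 CPM in WT. At CT10 it was at 21.6, 36.6 and 22.1 CPM in KO and 14.3, 35.2 and 23.4 CPM in WT. The genotypes overlapped at those 3 times. Its near copy Cd59b, expressed mainly in testis in the mouse, averaged 0.572 CPM, and reads shared between both copies could not be traced in counts. The genes most like Cd59a were Fam161b (r = 0.729), Rcl1 (r = 0.665) and Dusp22 (r = 0.655).

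Of 33 complement pathway genes, 26 were tested, and 1 passed in any contrast, the interaction, where 4.62% of all genes did. That gene was Vtn, which encodes vitronectin, a plasma and matrix protein that blocks the terminal pore, is found in drusen and is also made by mouse photoreceptors. Its interaction range was 2.47 (adjusted p = 0.0293), with 143 ± 25.7 CPM in KO and 382 ± 135 CPM in WT at CT1, and with 147, 196 and 425 CPM (lowest, median and highest) in KO and 106, 108 and 159 CPM in WT at CT22. These are the times and directions at which the rod markers differed: their summed level averaged 23826 CPM in KO and 59130 CPM in WT at CT1, and 48479 CPM in KO and 21220 CPM in WT at CT22. The part of the rods in the Vtn difference was not tested. Median genotype differences of the 26 genes were -0.18, -0.05, 0.40 and 0.15 at CT19, CT22, CT1 and CT10, with 0 genes called at each. At an unadjusted p under 0.05 there were 2, 3, 5 and 5 of the 26, beside 3.47%, 12.7%, 19.5% and 17.9% of all genes. The immune markers, which were higher in KO at CT1 without overlap, had a median difference of 0.76 there, and their part in the complement median was not tested.

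Per exonic length, Cd59a and Vtn stood far above C3 and Cfb. Mean levels were 0.313 CPM per kb for C3 and 0.0830 CPM per kb for Cfb, against 14.9 CPM per kb for Cd59a. The Cfb value uses all 2825 exonic bases, of which 2246 are shared with Gm20547. If reads in shared bases were not counted, that value is too low, so the order of Cfb and C3 per kb is uncertain. Vtn was at 113.8 CPM per kb. C2, the classical pathway counterpart of factor B, was at 3.22 CPM per kb. Cfi, the protease that inactivates C3b, was at 0.257 CPM per kb, and Cfd, the protease that activates factor B, at 0.202 CPM per kb with too few counts to be tested.

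Timp3 encodes the inhibitor of metalloproteinases that is stored in Bruch's membrane and is mutated in human Sorsby fundus dystrophy. Its place is GRCm38 chromosome 10, 86300372 to 86349506, on the plus strand (ENSMUSG00000020044), and it was the most abundant of the 8 genes. On the opposite strand, Syn3 shares 1733 of its 8144 exonic bases. The strand setting of the counting is not given in the sources used here. Syn3 averaged 56.1 CPM, against 7160.5 CPM for Timp3. If strand was ignored, reads in shared bases may have been given to neither gene. These levels therefore do not show how the overlap affects Timp3. At CT19, Timp3 was at 10611, 4591 and 6004 CPM in KO and 6049, 9673 and 10130.0 CPM in WT. At CT22 it was at 6264, 4089 and 9756 CPM in KO and 8221, 7943 and 10295 CPM in WT. At CT1 it was at 7488, 8779 and 4705 CPM in KO and 6533, 5075 and 6026 CPM in WT. At CT10 it was at 8659, 6763 and 6357 CPM in KO and 5695, 6734 and 5412 CPM in WT. KO and WT overlapped at each time, and log2 differences lay between -0.40 and 0.29 (SE 0.33 each).

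Timp3 changed little over time in KO, with a log2 range of 0.12 (adjusted p = 0.9998), and had a range of 0.59 in WT (adjusted p = 0.408). It followed other genes closely across libraries: Abat, which encodes GABA transaminase (r = 0.971), Tns3 (r = 0.957) and Mapre1 (r = 0.957). Its relatives differed widely in level. Timp3 was at 879 CPM per kb, Timp2 at 123.7 CPM per kb, Timp1 at 0.486 CPM per kb and Timp4 at 0.0926 CPM per kb. Timp2 had genotype differences of -0.30 to 0.35, close to those of Timp3.

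Efemp1 encodes fibulin-3, a matrix glycoprotein mutated in human Malattia Leventinese, and its protein binds TIMP3. It lies on GRCm38 chromosome 11, 28853204 to 28926743, on the plus strand (ENSMUSG00000020467), 40.2 Mb from Per1. At CT19 it was at 14.2, 7.20 and 12.2 CPM in KO and 23.6, 9.15 and 17.4 CPM in WT. At CT22 it was at 11.2, 9.95 and 20.2 CPM in KO and 10.6, 6.83 and 8.83 CPM in WT. At CT1 it was at 10.3, 11.8 and 16.2 CPM in KO and 12.3, 20.6 and 8.25 CPM in WT. At CT10 it was at 21.2, 15.5 and 12.3 CPM in KO and 12.8, 9.10 and 11.5 CPM in WT. The genotypes overlapped at every time. The log2 differences were -0.58 ± 0.36 at CT19, 0.66 ± 0.36 at CT22, -0.11 ± 0.36 at CT1 and 0.55 ± 0.36 at CT10, and none passed (adjusted p of 0.429 to 1.0). Efemp2, which encodes the related fibulin-4, was at 15.8 CPM per kb beside 6.41 CPM per kb for Efemp1. The genes most like Efemp1 were Cyp1b1, whose human counterpart is mutated in congenital glaucoma (r = 0.803), Sparcl1 (r = 0.691) and Atpaf1 (r = 0.684).

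Htra1 encodes a secreted serine protease that cleaves matrix proteins. Its place is GRCm38 chromosome 7, 130936111 to 130985660, on the plus strand (ENSMUSG00000006205), and it shares no exonic base with another gene. At CT10 it was at 66.4, 55.2 and 50.4 CPM in KO libraries, against 40.0, 38.3 and 29.7 CPM in WT libraries. All KO libraries were higher, with a log2 difference of 0.67 ± 0.25 that did not pass the test (unadjusted p = 0.0119, adjusted p = 0.174). The RPE markers at CT10 overlapped, at 52464 to 65100 CPM in KO libraries and 43701 to 55575 CPM in WT libraries. With them as a covariate, in a fit chosen after seeing the data, the Htra1 difference was 0.49 (adjusted p = 0.137). With the rod markers as a covariate it was 0.76 (adjusted p = 0.0711). At CT19 it was at 73.1, 35.5 and 40.8 CPM in KO and 53.3, 63.3 and 49.9 CPM in WT. At CT22 it was at 37.5, 38.3 and 58.5 CPM in KO and 51.6, 32.05 and 50.4 CPM in WT. At CT1 it was at 44.2, 44.5 and 29.9 CPM in KO and 52.3, 41.8 and 36.3 CPM in WT. The genotypes overlapped at those 3 times, with log2 differences between -0.16 and 0.00.

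Across libraries Htra1 was most like Ttll12 (r = 0.884), the metalloprotease gene Zmpste24 (r = 0.884) and Ctsl, which encodes the lysosomal protease cathepsin L (r = 0.878). Per exonic length, Htra1 was at 16.1 CPM per kb, the mitochondrial relative Htra2 at 10.5 CPM per kb, Htra3 at 1.05 CPM per kb and Htra4 at 0.125 CPM per kb.

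**Figure D5:**
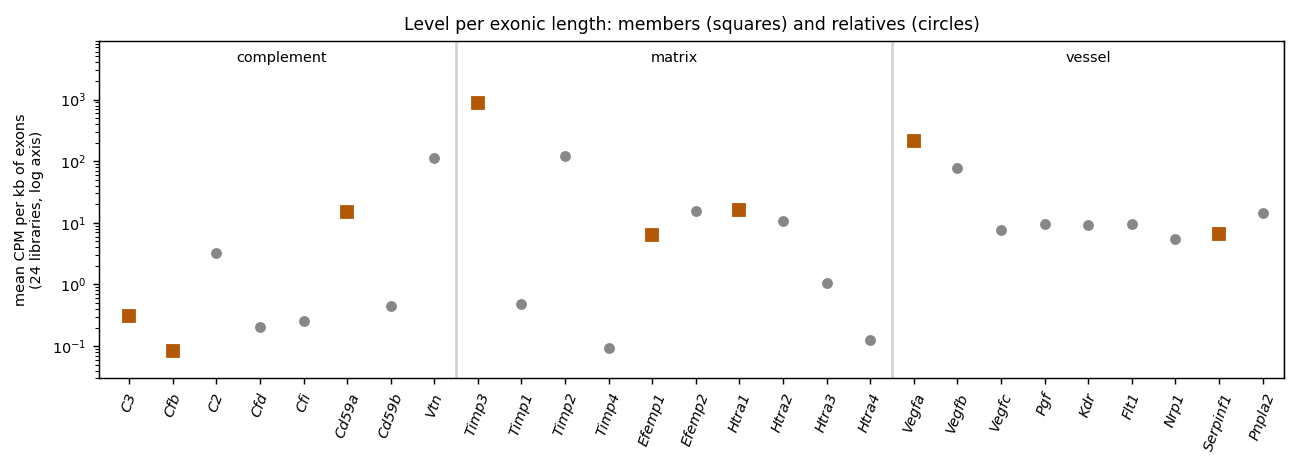
Mean CPM per kb of exons over the 24 libraries for the members (squares) and their relatives (circles), on a log axis, grouped by role. Timp3 at 879 and Vegfa at 213 CPM per kb were the highest members, and C3 and Cfb the lowest.

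Of 34 genes of Bruch's membrane and matrix turnover, all were tested. In any contrast 2 passed, Vtn and Col4a5, a chain of basement membrane collagen IV. Both passed in the interaction, where 4.62% of all genes did. At an unadjusted p under 0.05 there were 10 of the 34 in the interaction and 11 at CT1. The shares of all genes were 22.3% and 19.5%. Col4a5 had an interaction range of 1.99 (adjusted p = 0.0296). It averaged 64.1 ± 13.6 CPM in KO and 32.6 ± 6.13 CPM in WT at CT1, and 34.1 ± 8.29 CPM in KO and 68.8 ± 14.9 CPM in WT at CT10, the same order of genotypes as Vegfa at both times. Among 32 genes linked to macular degeneration, 29 were tested. Of these, 4 passed in the interaction, Vegfa, Vtn, Prph2 and Elovl4, where 4.62% of all genes did. Prph2, an outer segment structural gene, had a range of 2.76 (adjusted p = 0.0338) and Elovl4, which makes very long chain fatty acids in photoreceptors, one of 2.11 (adjusted p = 0.0314). Both are photoreceptor genes, and both stood lower in KO at CT1, Prph2 at 807 ± 205 CPM in KO and 2140 ± 896 CPM in WT, and Elovl4 at 104 ± 14.5 CPM in KO and 209 ± 75.4 CPM in WT, as the rod markers did. The part of the rods in these was not tested. Vegfa and Col4a5 thus had the opposite order of genotypes to these genes at CT1.

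Per exonic length the 8 members spanned Timp3 at 879, Vegfa at 213, Htra1 at 16.1, Cd59a at 14.9, Serpinf1 at 6.63, Efemp1 at 6.41, C3 at 0.313 and Cfb at 0.0830 CPM per kb. Of the genes tested, 99.8% were lower per kb than Timp3 and 99.3% lower than Vegfa, while 18.0% were lower than C3 and 4.59% lower than Cfb. The place of Cfb is uncertain, since its exonic length includes the bases shared with Gm20547. The SD over the 24 libraries was 240.1 CPM per kb for Timp3 and 56.5 CPM per kb for Vegfa. Htra1 (SD 4.01) and Cd59a (SD 4.49) had close means, as did Serpinf1 (SD 2.31) and Efemp1 (SD 2.29). Each SD mixes genotypes and times, and differences between genes within libraries were not tested.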

How the data were processed

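The authors deposited 1 table of read counts per gene, in whole numbers and not normalized, for the 24 libraries. Of its columns, 0 lacked a sample, and no row held unassigned reads. Trimmomatic 0.32, HISAT2 2.1.0, Cufflinks and HTSeq 0.11 were run on build GRCm38.p6, per the submitters' processing notes. What each did, the annotation release and the strand setting are not given in the sources used here. RNA came from the RNeasy Micro kit and libraries from the KAPA mRNA HyperPrep kit, per the labels' protocols. Within groups, no library repeated another (lowest chi-square per degree of freedom 30.69).

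Tests used edgeR 4.0.16 (R 4.3.3) with the filterByExpr minimum count of 10, TMM scaling and a robust quasi-likelihood fit of the 8 group means, with 16 residual degrees of freedom. Calls needed an adjusted p under 0.05 (Benjamini-Hochberg, 20275 genes). Where several times were tested together, the size given is a log2 range, highest minus lowest fitted value. Marker covariates are the mean log2(CPM + 1) of a marker list, and the choroid score joins endothelial, mural and fibroblast markers. Alternatives were RLE scaling, no filter, DESeq2 1.42.0, a replicate block, leaving out pools or single libraries, and marker covariates. The code was tested on simulated data with known changes.

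Members and lists were chosen with earlier results of these data known. The text names every member, close relatives by level, the 3 genes most like each member, and from each list up to 6 other called genes of lowest adjusted p; some genes that this rule names are not reported here. Gene positions come from GENCODE M21 on GRCm38, and promoter sequences from RefSeq on GRCm38.p6.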

Additional observations from a re-analysis of the deposited data

Results flagged for a closer look

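The KO minus WT difference of Vegfa differed between circadian times in the interaction test, with a log2 range of 1.551 over the 4 times (edgeR adjusted p = 0.0257). It was 0.95 at CT1 and -0.60 at CT10.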

How the results depend on the processing

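Of 2112 refitted member values, 2 turned sign with an unadjusted p under 0.05 in either fit: Timp3 at CT1 with rod and choroid scores as covariates (-0.74, adjusted p = 0.611) and Serpinf1 at CT22 with the choroid score (0.567, adjusted p = 0.730). Further sign changes occurred among values whose unadjusted p was 0.05 or more in both fits. The percentages of tested genes called follow in the order genotype average, CT19, CT22, CT1, CT10, time in WT, time in KO and interaction. As reported they were 0.375, 0.0691, 0.227, 0.533, 0.0345, 0.947, 0.0 and 4.62. With no low-count filter (32680 genes) they were 1.16, 0.358, 2.47, 4.76, 3.06, 6.61, 3.83 and 8.22, and with DESeq2 0.868, 0.182, 1.54, 5.46, 3.79, 7.16, 1.40 and 12.3. Of the 8 members, no filter called 1 at CT22 (Cd59a), 1 at CT1 (Vegfa), 2 over time in WT (Vegfa and Cfb) and 2 over time in KO (C3 and Serpinf1), and DESeq2 called 1 at CT1 and 1 at CT10 (both Vegfa) and 1 over time in KO (Serpinf1). For the settings that follow, the shares are given where the number of genes called moved by over 1.5 times. RLE scaling called 0.104% at CT10 and 1 member, Vegfa, at CT1. Without the pooled libraries (20940 genes tested), 0.0143% were called at CT19, 0.0573% at CT22, 0.0382% at CT1, 0.353% at CT10, 0.119% over time in WT (0 members), 0.00955% over time in KO and 1.42% in the interaction. The rod score called 0.607% in the average, 0.0592% at CT22, 0.0641% at CT1, 0.602% at CT10 and 0.153% in the interaction, with 0 members over time in WT and 0 in the interaction. The choroid score called 0.0838% at CT22, 0.0937% at CT10, 4.36% over time in WT (2 members, Vegfa and Cfb) and 0.533% in the interaction (0 members). The next pair of covariate fits was chosen after seeing the data. The RPE score called 0.636% in the average, 1.70% at CT1 (1 member, Vegfa), 1.23% at CT10, 3.40% over time in WT, 0.00493% over time in KO and 7.82% in the interaction. Rod and choroid scores together called 0.0641% at CT22, 0.0691% at CT1, 0.592% at CT10 and 0.133% in the interaction (0 members, and 0 over time in WT). Leaving out 1 library (21163 to 21439 genes tested) gave 0.303 to 0.406% in the average, 0.0141 to 0.0796% at CT19, 0.0562 to 1.48% at CT22, 0.0936 to 3.69% at CT1, 0.00466 to 0.155% at CT10, 0.0751 to 3.21% over time in WT, 0.0 to 0.0140% over time in KO and 0.0936 to 7.90% in the interaction, and 0 to 1 members at CT1, 0 to 2 over time in WT and 0 to 1 in the interaction. Library numbers recur across groups, but same-numbered libraries did not deviate together: their 30 correlations ran from -0.21 to 0.42, 7 were over 0.1, and 2 of 20 libraries correlated best with their own number. With the replicate block, 0.178% were called in the average, 0.00986% at CT19, 0.0197% at CT22, 0.0148% at CT1, 0.0740% over time in WT and 0.0148% in the interaction, with 0 members over time in WT and 0 in the interaction, and 7 residual degrees of freedom were left. The cause of these moves was not tested. Depth limits C3 and Cfb, whose counts were 0 in several libraries.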
